A study of Mus musculus with 6 samples.

Results

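Slc12a1, Kcnj1, Bsnd and Casr, 4 genes that carry or control salt transport in the thick ascending limb of the kidney tubule, were followed in whole mouse kidney between day 0 and day 21 of adenine and potassium oxonate gavage. The 4 genes were chosen by name from the 55450 genes of the count table. The rule holds no measured value, but the choice was made with earlier results of these data known. Kidney mRNA was sequenced from 6 male wild-type C57BL/6J mice, bought at 7 weeks of age and acclimatised for 1 week, with 3 mice in each group. The day-0 group, labelled as control, carries the treatment label 20% PEG, and the day-21 group received 0.16 g/kg adenine with 2.4 g/kg potassium oxonate by gavage once daily for 21 days. Adenine yields a poorly soluble product that is deposited in renal tubules, and oxonate blocks the breakdown of uric acid. Whether the day-21 mice also received PEG, and whether both groups were taken and prepared together, is not given in the sources used here.

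The thick ascending limb is the segment of the loop of Henle that takes up sodium chloride without letting water follow, which dilutes the tubular fluid and builds the salt gradient of the medulla. NKCC2, the protein of Slc12a1, brings sodium, potassium and chloride in from the lumen. The channel ROMK, made from Kcnj1, returns the potassium to the lumen, and chloride leaves towards the blood through channels that need the subunit barttin, made from Bsnd. Casr encodes the calcium-sensing receptor, which sits on the blood side of these cells and restrains salt and calcium uptake. Loss of NKCC2, ROMK or barttin function is known as a cause of Bartter syndrome, an inherited salt-wasting disorder.

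Total counts lay between 10963849 and 14256556 on day 0 and between 12662200 and 14333311 on day 21, so the depths overlapped. The TMM scaling factors did not: they were 0.852 to 0.886 on day 0 and 1.12 to 1.17 on day 21, and mitochondrially encoded genes took 9.39% to 9.86% and 3.82% to 4.42% of the counts, respectively. Levels are given as CPM, counts relative to the TMM-scaled library total. A floor of 3 counts equals 0.179 to 0.309 CPM here, a limit that covers counting error only. The kidney libraries held the defining markers of the segment in all mice. Umod, Slc12a1, Cldn16 and Cldn19 summed to between 5329 and 6651 CPM on day 0 and between 3588 and 4032 CPM on day 21. Most of this sum was Umod, with means of 4663 and 3408 CPM, and Slc12a1 is itself 1 of the 4 genes. Cldn16 (8.62 and 15.3 CPM) and Cldn19 (30.6 and 60.2 CPM) added little to the sum and were higher on day 21. The day-21 group was set against the day-0 group by the quasi-likelihood test of edgeR, p-values were adjusted by Benjamini-Hochberg over 16592 genes, and a gene was called (a DEG) if its adjusted p was under 0.05 and its fold above 1.5.

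Of the 4 genes, 3 were called lower on day 21, beside 15.5% of all genes tested that were called lower and 35.1% called in either direction. Slc12a1 fell to 31.9% of its day-0 level, Casr fell 2.41-fold and Kcnj1 fell 1.81-fold. Bsnd, at 1.24-fold below its day-0 level, was not called. At any fold, the same 3 genes had an adjusted p under 0.05, beside 45.6% of all genes tested. In none of the 4 did the groups overlap, which held for 57.1% of all genes tested. In whole kidney, fewer thick ascending limb cells and less RNA per cell cannot be told apart.

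The stretches before the transcription start are shown for Slc12a1, Kcnj1 and Casr, the 3 genes called lower, from the RefSeq promoter table on GRCm38.p6, which held 3 of the 4 genes. Each runs 5′ to 3′ from 250 bases before the RefSeq start to that start, or to the base before an annotated exon where one begins earlier within the window, and capitals mark a motif match.

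Slc12a1, chr2:125152350-125152504, forward strand: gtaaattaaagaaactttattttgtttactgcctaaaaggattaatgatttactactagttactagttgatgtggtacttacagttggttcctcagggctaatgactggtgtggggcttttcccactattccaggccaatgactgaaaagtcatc

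Kcnj1, chr9:32393735-32393984, forward strand: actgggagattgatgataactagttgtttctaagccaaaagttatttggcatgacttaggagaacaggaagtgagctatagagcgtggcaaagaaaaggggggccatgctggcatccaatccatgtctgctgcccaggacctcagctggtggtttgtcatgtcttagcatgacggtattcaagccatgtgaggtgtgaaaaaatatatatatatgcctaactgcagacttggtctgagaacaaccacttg

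Casr, chr16:36562142-36562384, reverse strand: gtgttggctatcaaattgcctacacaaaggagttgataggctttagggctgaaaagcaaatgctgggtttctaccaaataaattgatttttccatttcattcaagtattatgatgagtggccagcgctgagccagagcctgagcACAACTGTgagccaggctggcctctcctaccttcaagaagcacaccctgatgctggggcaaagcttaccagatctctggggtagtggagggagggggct

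Motifs were searched on both strands in windows of 300 bases, 250 before and 50 after each start, across 32851 promoters. The Iroquois site ACANNTGT was present in Casr, at positions -106 to -99 from the start, and in 7.38% of all promoters. None of the 3 windows held the oestrogen-related receptor site AAGGTCA (4.72% of all promoters), the cyclic AMP response element TGACGTCA (1.79%) or the TATA box TATAAA (13.6%). The Kcnj1 window belongs to the last of 3 annotated starts of that gene. A match is a description of the letters and says nothing of binding.

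Slc12a1 (ENSMUSG00000027202.12), the apical cotransporter that furosemide blocks, lies on the forward strand at chr2:125152505-125230002 of GRCm38, with 4 annotated transcripts and 27 exons in the longest. The 3 day-0 mice had 1309, 1192 and 1238 CPM, and the 3 day-21 mice had 347, 429 and 415 CPM. Every day-21 mouse was far below every day-0 mouse, and the mice of each group lay close together, with a coefficient of variation of 4.73% on day 0 and 11.1% on day 21. The mean level fell from 1246 ± 59.0 to 397 ± 43.9 CPM (SD, n = 3 each), a log2 fold change of -1.65 (SE 0.12, 95% interval -1.92 to -1.38, edgeR adjusted p = 5.5e-06).

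Kcnj1 (ENSMUSG00000041248.9), the potassium channel that recycles potassium to the lumen and also secretes it in the collecting duct, lies on the forward strand at chr9:32372493-32399197. Its levels were 254, 277 and 243 CPM on day 0, against 121, 175 and 131 CPM on day 21. The highest day-21 mouse stayed well below the lowest day-0 mouse. The mean fell from 258 ± 17.1 to 143 ± 28.4 CPM (SD, n = 3 each), a log2 fold change of -0.85 (SE 0.14, 95% interval -1.18 to -0.53, edgeR adjusted p = 0.00086). Scaled by library size alone, the log2 fold change of Kcnj1 was -0.46 (edgeR adjusted p = 0.023), under the 1.5-fold limit, since that scaling moved the median of all genes by 0.39. Relative to the median of all genes Kcnj1 stood at -0.89 with TMM and at -0.88 with library size alone. A change of scaling shifts all genes nearly alike, so these values must lie close together and do not restore the call.

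Bsnd (ENSMUSG00000025418.7), the barttin subunit that carries chloride channels to the membrane, lies on the reverse strand at chr4:106483456-106492283 and has 1 annotated transcript of 4 exons. The day-0 mice had 51.9, 62.0 and 64.4 CPM, and the day-21 mice had 51.2, 48.2 and 44.2 CPM. The groups did not overlap, but the lowest day-0 mouse and the highest day-21 mouse were almost level. The means were 59.4 ± 6.67 and 47.9 ± 3.52 CPM (SD, n = 3 each), a log2 fold change of -0.31 (SE 0.12, edgeR adjusted p = 0.056). Its 95% interval, -0.58 to -0.04, is not adjusted over the genes tested, unlike that p-value. The interval overlaps that of Kcnj1 but not those of Slc12a1 and Casr, which is a description and no test between genes. Scaled by library size alone, Bsnd stood at 0.076 (edgeR adjusted p = 0.6). Relative to the median of all genes it stood at -0.34 under both scalings, which must nearly agree because scaling shifts all genes nearly alike.

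Casr (ENSMUSG00000051980.13), the calcium-sensing receptor, lies on the reverse strand at chr16:36493696-36562141. The day-0 mice had 62.4, 91.3 and 72.5 CPM and the day-21 mice had 39.0, 27.5 and 27.6 CPM. The groups were well apart although the day-0 mice spread widely, with a coefficient of variation of 19.5%. The mean fell from 75.4 ± 14.7 to 31.4 ± 6.59 CPM (SD, n = 3 each), a log2 fold change of -1.27 (SE 0.18, 95% interval -1.67 to -0.87, edgeR adjusted p = 0.00026). For each of the 4 genes a two-sided exact permutation test over the mice gave p = 0.1, the smallest value that 3 against 3 mice allow. No exon base of any of the 4 genes lies in an exon of another annotated gene.

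**Figure D1:**
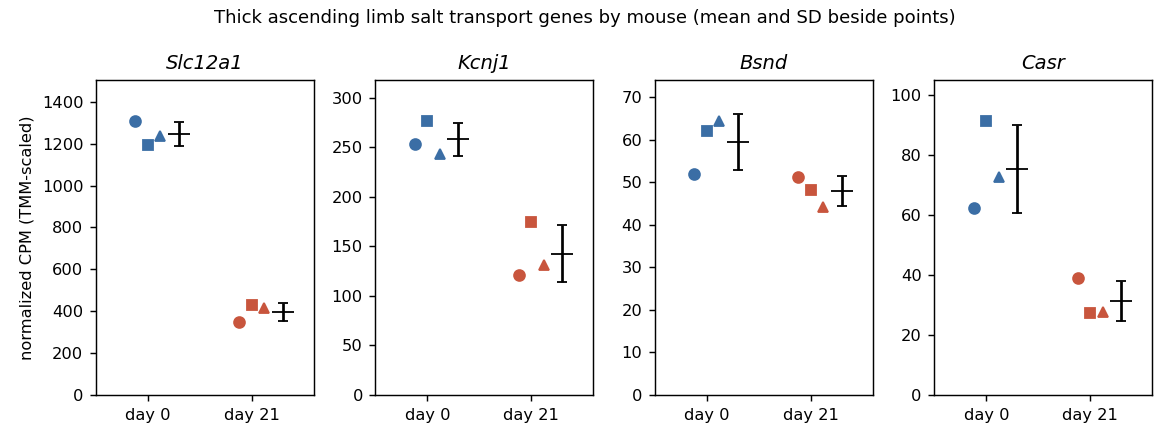
Level of Slc12a1, Kcnj1, Bsnd and Casr in each of the 6 mice, in TMM-scaled CPM on an axis of its own for each gene, with day 0 in blue and day 21 in red; crossed bars beside the points are group means with SD, and circle, square and triangle are replicates 1, 2 and 3. The groups are far apart for Slc12a1 (1246 against 397 CPM on average) and nearly touch for Bsnd (59.4 against 47.9 CPM).

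Compared per length of exon, the order of the levels was Slc12a1, Kcnj1, Bsnd and Casr in both groups, but the steps between them changed. On day 0 Slc12a1 had 216 ± 10.2 CPM per 1000 exon bases, Kcnj1 77.3 ± 5.12, Bsnd 21.6 ± 2.42 and Casr 16.0 ± 3.12 (SD, n = 3 each). Bsnd and Casr, the last neighbours in this order, overlapped between mice on day 0. On day 21 the levels per 1000 exon bases were 68.9 ± 7.62 for Slc12a1, 42.8 ± 8.52 for Kcnj1, 17.4 ± 1.28 for Bsnd and 6.65 ± 1.40 for Casr (SD, n = 3 each), and no neighbours overlapped. By level per length Slc12a1 ranked 223 among all genes on day 0 and 637 on day 21, and Casr ranked 3563 and 6828. Umod, the gene of uromodulin, the most abundant protein of normal urine, ranked 21 and 18.

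**Figure D2:**
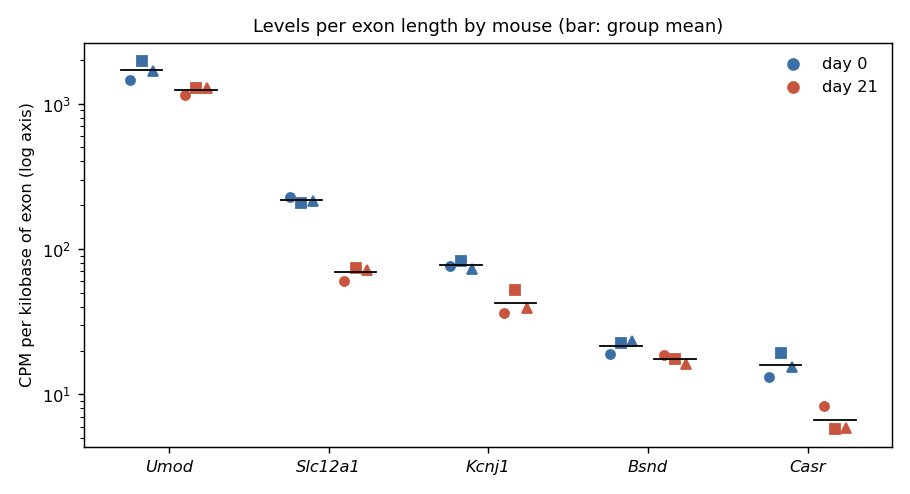
Level per 1000 exon bases of the 4 genes and of Umod, in CPM per 1000 exon bases on a log axis, with 1 point per mouse (day 0 blue, day 21 red; circle, square and triangle are replicates 1, 2 and 3). Slc12a1 moves from 216 to 68.9 on average, while Umod stays the highest at 1688 and 1233.

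The genes were also set against each other within each mouse. Ratios between genes of the same mouse hardly depend on how libraries are scaled, and 10 pairs among the 4 genes and Umod were compared by a two-sided exact permutation test, in which no pair could go below p = 0.1 (0.143 after adjustment over the 10 pairs). In 7 of the 10 pairs the groups did not overlap, while 57.1% of all single genes tested did not overlap. The pairs share genes and are not independent, and no share was computed for other pairs of genes. Slc12a1 over Kcnj1 fell 1.72-fold (log2 shift -0.79, exact p = 0.1), and Slc12a1 over Bsnd fell 2.54-fold (log2 shift -1.35, exact p = 0.1). All of these are ratios of whole-kidney RNA counts, which can mix cell types and do not measure transport. Against Umod, a product of the same cells, Slc12a1 fell 2.32-fold, from 0.269 to 0.116 on average, and Casr fell 1.77-fold. Each of these 4 ratios was lower in every day-21 mouse than in every day-0 mouse.

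Kcnj1 over Bsnd had a log2 shift of -0.56 and Kcnj1 over Umod of -0.43, both without overlap (exact p = 0.1 each). Bsnd over Casr went the other way, from 0.795 to 1.54 on average, a 1.94-fold rise without overlap (exact p = 0.1). The remaining 3 pairs overlapped: Slc12a1 over Casr shifted by -0.39 (exact p = 0.4), Kcnj1 over Casr by 0.40 (exact p = 0.3) and Bsnd over Umod by 0.13 (exact p = 0.5).

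**Figure D3:**
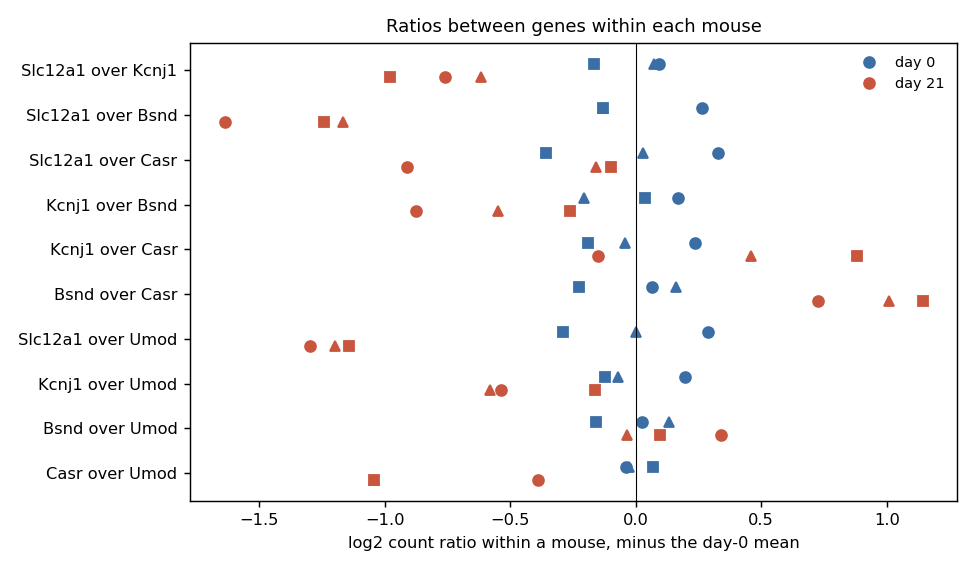
Log2 ratio of the counts of a pair of genes within each mouse, less its day-0 mean, for 10 pairs among Slc12a1, Kcnj1, Bsnd, Casr and Umod (day 0 blue, day 21 red; circle, square and triangle are replicates 1, 2 and 3). Groups are apart in 7 pairs, with the widest gap for Slc12a1 over Bsnd (shift -1.35), and overlap in 3.

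Umod was 3983, 5413 and 4594 CPM on day 0, against 3168, 3518 and 3538 CPM on day 21. Its groups did not overlap. The log2 fold change of Umod, -0.45 (SE 0.14, edgeR adjusted p = 0.027), was under the 1.5-fold limit, so that it was not called. Scaling by library size alone moved the median of all genes up by 0.39, nearly the size of this fall, so the fall depends on the scaling. Gm44588, a gene annotated on the opposite strand, has 539 of its 545 exon bases inside those of Umod and held 17538 to 29960 counts per mouse beside 39784 to 65772 for Umod. The strand setting of the counting is not given in the sources used here, so reads of the 2 genes cannot be told apart in that stretch.

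Of 9 genes listed as further partners in salt entry and exit, 4 were called lower and 0 higher. Their median log2 fold change was -0.54 beside 0.03 for all genes tested. The sodium bicarbonate cotransporter Slc4a4 fell from 1277 to 503 CPM (-1.34, edgeR adjusted p = 8.6e-05) and the sodium-hydrogen exchanger Slc9a3 from 155 to 74.0 CPM (-1.07, edgeR adjusted p = 0.00095). Both are strongly expressed in the proximal tubule, whose 6 markers were all called lower, so in whole kidney these falls cannot be assigned to the thick ascending limb. Fxyd2, the gamma subunit of the sodium pump that drives the uptake of salt, had 1661, 2016 and 1457 CPM on day 0, against 819, 873 and 886 CPM on day 21. Its groups were well apart. The mean fell from 1711 ± 283 to 859 ± 35.6 CPM (SD, n = 3 each, log2 fold change -0.99, SE 0.14, edgeR adjusted p = 0.00025). The fall of Fxyd2 in whole kidney cannot be assigned to the thick ascending limb either.

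The claudins, which form the paracellular pores and barriers of the segment, moved in both directions. Of 6 claudin genes 5 passed the filter on low counts, 4 were called higher and 1 lower, with a median log2 fold change of 0.97. Cldn10, which has a form that makes the sodium pore, fell from 194 to 103 CPM (-0.92, edgeR adjusted p = 0.00057). The counts are per gene and do not separate its forms. Cldn16 and Cldn19, which together make the calcium and magnesium pathway and are mutated in familial hypomagnesaemia, rose from 8.62 to 15.3 CPM (0.82, SE 0.20, edgeR adjusted p = 0.0066) and from 30.6 to 60.2 CPM (0.97, SE 0.14, edgeR adjusted p = 0.0003). Cldn3 rose from 11.7 to 48.8 CPM (2.06, SE 0.19, edgeR adjusted p = 1.8e-05). Cldn14, a claudin under the control of the calcium-sensing receptor that blocks the calcium pathway, had 5, 6 and 6 counts on day 0, against 22, 20 and 17 counts on day 21. Its call (1.22, SE 0.44, edgeR adjusted p = 0.042) was lost without any 1 of the 6 mice, with DESeq2 or limma-voom, with no filter and with the replicate block. Scaled by library size alone, the 4 rises remained and Cldn10, at -0.53, was not called.

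The kinases, phosphatase inhibitors and trafficking proteins that act on NKCC2 had 5 of 12 genes called lower and 1 higher (median -0.43). In whole kidney the values of these genes cannot be assigned to the thick ascending limb. Of the 4 distal convoluted tubule markers 3 were called lower as well, and the counts do not separate the forms of a gene. Ppp1r1a, protein phosphatase inhibitor 1, fell from 140 to 45.5 CPM (-1.62, edgeR adjusted p = 3.9e-05). Klhl3, which targets WNK kinases for degradation, fell from 67.5 to 23.3 CPM (-1.53, edgeR adjusted p = 1.5e-05). The kinase genes Wnk4 (166 to 86.7 CPM, -0.93, edgeR adjusted p = 0.0015) and Wnk1 (570 to 311 CPM, -0.87, edgeR adjusted p = 0.00014) fell too, but neither was called when scaled by library size alone (-0.54 and -0.48). Stk39, the kinase SPAK downstream of the WNKs, was 31.2 and 42.4 CPM (0.44, SE 0.11, edgeR adjusted p = 0.0089), under the 1.5-fold limit. With library size alone Stk39 stood at 0.83 (edgeR adjusted p = 0.00029) and was called higher. Maged2, whose product promotes surface expression of NKCC2 and whose loss causes a transient antenatal Bartter syndrome, rose from 21.5 to 58.2 CPM (1.44, edgeR adjusted p = 5.4e-05).

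Of 7 hormone receptor and cyclic AMP genes, 3 were called lower and 0 higher (median -0.24). They were the prostaglandin E2 receptor Ptger3 (71.2 to 26.2 CPM, -1.44, edgeR adjusted p = 1e-05), the glucagon receptor Gcgr (27.6 to 10.6 CPM, -1.39, edgeR adjusted p = 0.00024) and the parathyroid hormone receptor Pth1r (641 to 317 CPM, -1.02, edgeR adjusted p = 0.00039). Pth1r is also expressed in the proximal tubule. Of 5 genes downstream of the calcium-sensing receptor, 1 was called higher and 1 lower (median -0.05). The inhibitory G protein gene Gnai2, which most cell types express, rose from 199 to 360 CPM (0.86, edgeR adjusted p = 0.00015), and the phospholipase gene Plcb1 fell from 34.8 to 21.5 CPM (-0.69, edgeR adjusted p = 0.0039), a call lost without day-21 replicate 2 (-0.56) and with library size alone (-0.31).

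Of 13 markers and transcription factors of the thick ascending limb and the macula densa, 4 were called lower and 1 higher (median -0.50). Egf, the gene of epidermal growth factor, made in this segment and the distal convoluted tubule, fell 18.8-fold from 1883 to 100.2 CPM (-4.23, SE 0.17, edgeR adjusted p = 3.2e-07). Esrrb, an orphan nuclear receptor, fell from 72.0 to 16.6 CPM (-2.12, edgeR adjusted p = 6.4e-06), and Irx1, an Iroquois transcription factor, from 61.6 to 29.6 CPM (-1.06, edgeR adjusted p = 9.7e-05). Ptgs2, the cyclooxygenase of the macula densa and of inflamed tissue, rose from 0.873 to 2.11 CPM (1.29, edgeR adjusted p = 0.045), a call lost with DESeq2 and without any 1 of 5 mice.

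In the Slc12 family of cotransporters other than Slc12a1, 6 of 7 genes passed the filter, 1 was called lower and 1 higher (median -0.28). Slc12a3, the thiazide-sensitive cotransporter NCC of the distal convoluted tubule, fell from 628 to 307 CPM (-1.03, edgeR adjusted p = 0.001). Slc12a2, the widely expressed relative NKCC1, was 58.6 and 54.8 CPM (-0.09, edgeR adjusted p = 0.71), a value that turned to 0.17 without day-0 replicate 3 and to 0.29 with library size alone. The potassium chloride cotransporter gene Slc12a4 was called higher (0.63, edgeR adjusted p = 0.0058), a call lost without day-0 replicate 3.

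Across all 59 genes of these lists, 57 passed the filter, 19 were called lower and 8 higher, and the median log2 fold change was -0.45. Over all genes tested, 15.5% were called lower and 19.6% higher. With library size alone the lists had 12 genes lower and 14 higher. Their median relative to that of all genes was -0.48 under both scalings, which must nearly agree because scaling shifts all genes nearly alike.

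**Figure D4:**
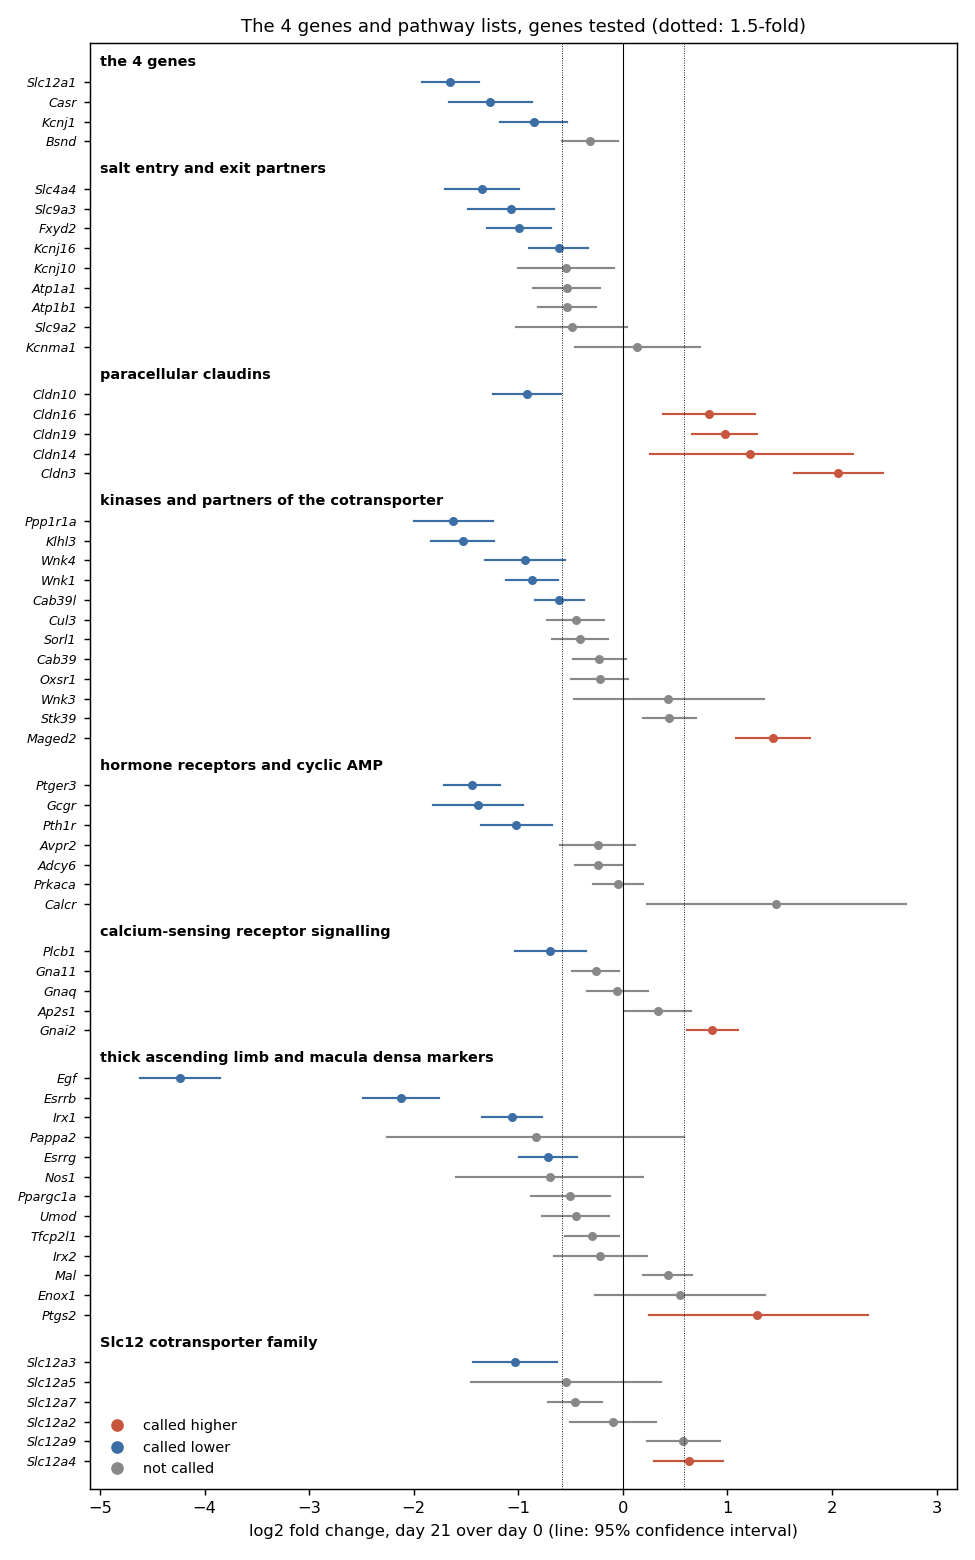
Log2 fold change, day 21 minus day 0, of the listed genes that passed the filter, by list, with the 4 chosen genes at the top; horizontal lines are 95% intervals, colours mark genes called higher (red), called lower (blue) or not called (grey), and dotted lines are the 1.5-fold limits. Egf lies farthest down at -4.23 and Cldn3 farthest up at 2.06.

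Of the 4 thick ascending limb markers, 2 were called higher (Cldn16 and Cldn19), 1 was called lower (Slc12a1) and 1 was not called (Umod). Markers of other cells moved as well. All 6 proximal tubule markers were called lower, and their summed level went from between 9253 and 10096 CPM on day 0 to between 1782 and 2210 CPM on day 21. Macrophage, T cell, fibroblast and injured tubule markers were called higher in 4 of 4 genes each. Their summed levels went from 96.2 to 112 CPM up to 363 to 416 CPM for macrophages, from 2.10 to 6.34 up to 14.0 to 16.9 CPM for T cells, from 150 to 191 up to 786 to 1454 CPM for fibroblasts, and from 23.5 to 60.8 up to 1887 to 2295 CPM for injured tubule, with no marker at 0 in all mice. Distal convoluted tubule, intercalated cell and podocyte markers were called lower in 3 of 4 genes each, principal cell markers in 2 of 4 and endothelial markers in 1 of 4, with 0 higher in any of these lists. The part that these shifts in other cells play in the values of the thick ascending limb genes was not tested.

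Each of the 4 genes was also set against 13138 genes with a mean of at least 50 counts, to find those whose log2 CPM, centred on their own mean, ran closest over the 6 mice. Nearest to Slc12a1 were AI314278, annotated as a long noncoding RNA, at a root mean square distance of 0.0669, and Mccc1, a subunit of the mitochondrial enzyme that breaks down leucine, at 0.113. Nearest to Kcnj1 were Stk32b, a kinase gene, at 0.0750 and Fras1, an extracellular matrix gene, at 0.0768. Nearest to Bsnd were Pcdh1, a protocadherin gene, at 0.0361 and the sorting nexin gene Snx19 at 0.0396, and nearest to Casr were Asb9 at 0.0621 and Glb1l2 at 0.106. Between the 4 genes themselves the distances ran from 0.350 for Kcnj1 and Bsnd to 0.702 for Slc12a1 and Bsnd. The genes named above are the nearest of 13138, so their smaller distances follow from the search. These distances are descriptions over 6 mice in 2 groups.

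**Figure D5:**
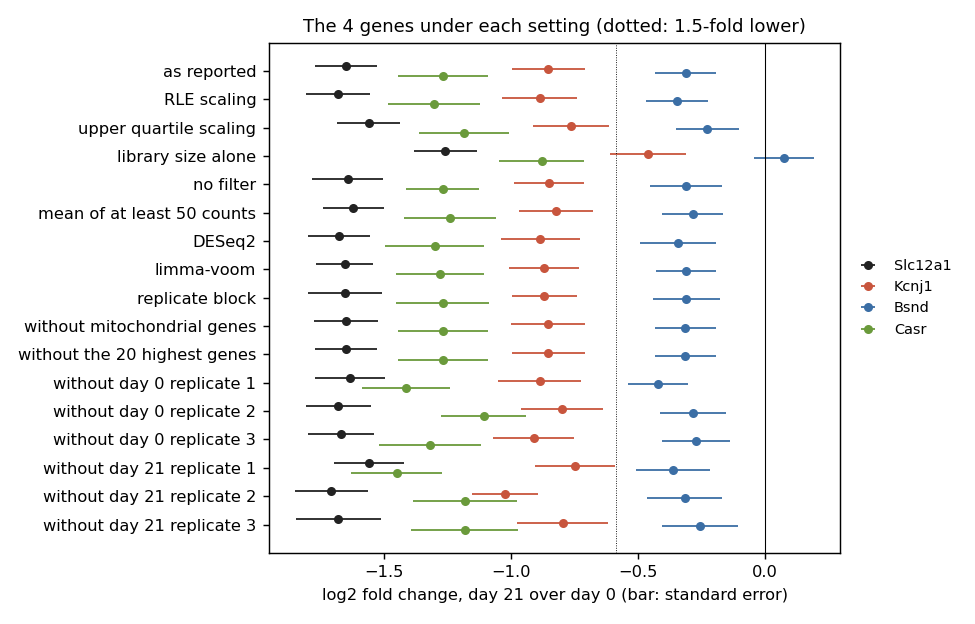
Log2 fold change of Slc12a1, Kcnj1, Bsnd and Casr as reported (top line) and under 16 alternative settings, with bars for the standard error, a line at 0 and a dotted line at 1.5-fold lower. Slc12a1 stays between -1.71 and -1.26 and Casr between -1.45 and -0.88, while Kcnj1 (-1.03 to -0.46) and Bsnd (-0.42 to 0.08) have their highest values with library size alone.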

How the data were processed

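Total RNA from whole kidney of 3 day-0 and 3 day-21 mice was made into cDNA libraries and sequenced as paired-end reads. The authors deposited the counts as they were, unnormalized, with a column per mouse. The submitters' processing notes name TopHat and mm10, and the counting program and its strand setting are not given in the sources used here. All 55450 identifiers matched GENCODE mouse release 21, which supplied positions and exons, and 28536 genes had no count. Groups were taken from the labels. The mice are separate animals, and no pair of libraries within a group was a duplicate (chi-square per gene 7.19 to 24.0). Pairs across the groups were not checked in this way.

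Counts were filtered with filterByExpr (minimum count 10, minimum total 15), TMM-scaled and compared with edgeR 4.0.16 in R 4.3.3 (quasi-likelihood test, no block, Benjamini-Hochberg over 16592 genes). The fit was tested on simulated data. Ratios within mice added 0.5 to each count and were compared in scipy 1.17.1. The alternatives were RLE, upper quartile and library-size scaling, no filter or a mean of at least 50 counts, DESeq2 1.42.0, limma-voom (limma 3.58.1), a replicate block, libraries without mitochondrial or the 20 highest genes, other thresholds, a prior count of 2, longest-transcript lengths and leaving out each mouse. Genes named are the 4 genes, up to 3 called genes per list and direction, 10 genes named whatever their values and the 2 nearest in pattern to each. The genes and lists were chosen with earlier results of these data known. Sequences are from RefSeq. Proteomics, histology and other data of the study were not analysed here, and a few genes and motifs, left out of the lists, are not reported here.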

Additional observations from a re-analysis of the deposited data

How the results depend on the processing

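Under 16 alternatives each, Slc12a1 (-1.71 to -1.26) and Casr (-1.45 to -0.88) stayed called lower. With library size alone, Kcnj1 stood at -0.46 and was not called, Bsnd at 0.076, Pcdh1 at 0.11, Snx19 at 0.066 and Slc12a2 at 0.29 had turned in sign, listed genes were called higher in 14 cases and lower in 12, and all genes in 5982 and 1338, since that setting moved the median of all genes by 0.39. The share of lower genes among those called was 44.2% with TMM, 47.0% with RLE, 37.0% with upper quartile and 18.3% with library size alone. With limits of 0.01 on the adjusted p and 2 on the fold, 2 listed genes were called higher and 11 lower, and 1918 and 1254 of all genes. Slc12a2 ran from -0.23 to 0.17 with each mouse left out, the highest without day-0 replicate 3. Per length of the longest transcript Slc12a1 stood at 263 on day 0 and 83.7 on day 21, and Kcnj1 at 83.8 on day 0. Bsnd passed an adjusted p of 0.05 with RLE (0.04) and without day-0 replicate 1 (0.015), at under 1.5-fold. With each mouse left out in turn, Slc12a1 ran from -1.71 to -1.56, Kcnj1 from -1.03 to -0.75, Bsnd from -0.42 to -0.26 and Casr from -1.45 to -1.11, and 6 to 7 listed genes were higher and 18 to 21 lower. Replicate numbers did not pair the mice, which differ between days (correlations of same-numbered deviations -0.03, 0.18 and 0.11), and not every mouse correlated best with its own number. With the replicate block Slc12a1 was -1.66, Kcnj1 -0.87, Bsnd -0.31 (adjusted p = 0.083) and Casr -1.27, and no call among these 4 changed. Of 35 other named genes, 22 kept direction and call under every alternative run. Groups of 3 limit the exact tests to p = 0.1, and genes with few counts, such as Cldn14 and Ptgs2, are limited by depth.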
